A study of Mus musculus with 6 samples.

Results

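Alveolar Inmt fibroblasts were described here by a gate on unique molecular identifier (UMI) counts, in single-cell RNA sequencing (scRNA-Seq, 10x Genomics 3′ chemistry) of CD45- mouse lung cells. Inmt encodes indolethylamine N-methyltransferase, an enzyme that methylates small amines. Barcodes were kept with at least 500 genes, at least 1000 UMIs and under 15% mitochondrial UMIs. A fibroblast had a UMI of at least 2 of Col1a1, Col1a2, Pdgfra and Dcn and no UMI of Ptprc, Cdh5, Lamp3, Foxj1 or Msln, which mark leukocytes, endothelium, type 2 alveolar epithelial cells (AEC2s), ciliated cells and mesothelium. A member was a gated fibroblast with at least 3 Inmt UMIs, more Inmt than Clec3b UMIs, and no UMI of Pi16. The members were thus chosen by their own Inmt, Clec3b, Pi16 and gate gene UMIs, and those 12 genes are given as description, with no test and in no count of a gene list. These rules gave 2770 members among 12450 gated fibroblasts and 44096 kept barcodes, from 88578 barcodes in all.

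The study asked how loss of the zinc importer gene Slc39a8 (Zip8) from AEC2s altered the lung, and included 4 control libraries and 2 libraries labelled Zip8 knockout, on the C57BL/6 strain by the labels and of C57BL/6J background by the study's methods. The knockout genotype was SFTPC-CreER Rosa26-tdTomato Zip8 fl/fl (Zip8AEC2), in which tamoxifen starts recombination under a promoter of AEC2s, not of fibroblasts. Both groups, littermate controls and Zip8AEC2, were 10 to 12 weeks old and were taken 2 weeks after 4 doses of tamoxifen, and their lung cells were depleted of CD45+ cells on magnetic beads. The sources used here do not state the alleles of the control libraries or the number of mice behind each library. For organoid cultures the study's methods set Zip8AEC2 against SFTPC-CreER Rosa-Tomato mice without the floxed Zip8 allele. Since the number of mice is not stated, the p-values measure the spread between these libraries, which may be technical.

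The targeted gene was read first, as a check of the labels. AEC2 reference cells were kept barcodes with at least 50 Sftpc UMIs, a Lamp3 UMI and no UMI of Ptprc, Cdh5 or Foxj1. Barcodes with over 5% of UMIs from Scgb1a1, an airway gene, were left out. The reference cells were read here in UMIs per 1000000 UMIs (UPM, with no other scaling). In them Slc39a8 stood at 243, 231, 218 and 228 UPM in controls 1 to 4 and at 258 and 248 in the libraries labelled Zip8AEC2. The labelled knockouts were therefore not lower at the level of 3′ counts, which do not tell apart transcripts with and without the floxed exons. The groups are called by their labels throughout, and every direction below rests on those labels. In the members Slc39a8 was scarce, at 9.4, 8.6, 6.4 and 8.4 UPM in controls and 4.8 and 6.7 in Zip8AEC2.

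Alveolar fibroblasts lie in the septa between air sacs, next to AEC2s and capillaries. They are known for lipid droplets and retinoid stores, for laying down elastic and basement membrane matrix, and for ligands of the FGF, WNT and BMP families that reach the epithelium. Adventitial fibroblasts, which surround vessels and airways, are known for Pi16, Clec3b and Dpt. Fibroblasts gated on Clec3b served here as the population for comparison, and markers of other cells in their sums are described below.

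The barcodes of each library held 105774150, 114018446, 118771907 and 93852253 UMIs in all in controls and 107957330 and 103337822 in Zip8AEC2. The totals were alike, but the median barcode held 2075, 1388.5, 1351 and 3275 UMIs in controls and 1317 and 10097 in Zip8AEC2. The members were 418, 873, 280 and 523 cells in controls 1 to 4 and 140 and 536 cells in Zip8AEC2 1 and 2. Their summed UMIs were 3414054, 7673090, 2792408 and 3087518 in controls and 1036713 and 5657763 in Zip8AEC2. Zip8AEC2 1 was thus the shallowest sum by far. The median member held 7094, 7834, 8552.5 and 4933 UMIs in controls and 7374 and 9732.5 in Zip8AEC2, with 2023 to 3082 genes.

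A subset of the members stood apart. Barcode sequences that also occurred in another library numbered 9002, 12509, 12863 and 5006 in controls and 8764 and 2872 in Zip8AEC2, among all barcodes. Cells in which Scgb1a1, the secretory protein of airway club cells, took over 5% of all UMIs numbered 15, 203, 42 and 7 in controls and 2 and 17 in Zip8AEC2, 286 cells in all. Of these, 8, 160, 36 and 6 in controls and 2 and 7 in Zip8AEC2 had a barcode that also occurred in another library with more UMIs. Among the other members 0, 2, 1 and 2 in controls and 0 and 3 in Zip8AEC2 did so. Scgb1a1 took 39052, 84383, 97432 and 8627 UPM of members in controls and 10995 and 62740 in Zip8AEC2. Without those 286 cells the level was 8381, 6031, 10023 and 5438 in controls and 10540 and 8690 in Zip8AEC2, close to that of Cdh5-positive endothelial cells, at 7712 to 13028. The endothelial cells were likewise limited to barcodes with at most 5% Scgb1a1. Both levels were thus bounded by the same cut, and their closeness is no independent check. These airway-rich cells were left out in an alternative chosen after the data were seen, and results without them are given beside those they changed most.

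The median member had 47, 44, 47 and 30 Inmt UMIs in controls and 46 and 73 in Zip8AEC2, far from the threshold of 3. Just inside it, with exactly 3 Inmt UMIs, lay 9, 79, 25 and 12 cells in controls and 1 and 7 in Zip8AEC2. Just outside, with 2, lay 17, 81, 58 and 21 cells and 1 and 10 cells. Of the cells with exactly 3, 9, 70, 25 and 3 in controls and 0 and 7 in Zip8AEC2 were airway-rich, which was most of them except in control 4 and Zip8AEC2 1. Inmt in counts per 1000000 (CPM, scaled by trimmed mean of M-values over the member sums and not by gene length) was 6903, 7008, 6190 and 6474 in controls and 6134 and 7327 in Zip8AEC2. Inmt lies on chromosome 6 of mm10, at chr6:55170626-55175043 on the minus strand.

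The demand for no Pi16 UMI cut deep. Of the gated fibroblasts with at least 3 Inmt UMIs and more Inmt than Clec3b, 53.2, 55.2, 56.7 and 41.5% in controls and 42.6 and 40.8% in Zip8AEC2 had a Pi16 UMI and were not members. These were 475, 1074, 367 and 371 cells in controls and 104 and 369 in Zip8AEC2. Only 113, 370, 68 and 87 of them in controls and 13 and 71 in Zip8AEC2 had exactly 1 Pi16 UMI, and the rest had more. Pi16 encodes a peptidase inhibitor of adventitial fibroblasts. Among Cdh5-positive endothelial cells, which should lack Pi16, 14.6, 13.3, 16.9 and 5.95% in controls and 3.53 and 9.14% in Zip8AEC2 had one, at a median of 2858 to 4625.5 UMIs per cell. The endothelial cells were shallower than the members, so these shares are not matched for depth. With at least 3 Inmt UMIs, 0 to 1.32% of endothelial cells qualified.

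The label was checked on the markers that the rule did not use. Npnt, which encodes the basement membrane ligand nephronectin, was seen in 72.8% ± 8.84 (SD, n = 6 libraries) of members thinned to 2000 UMIs per cell, against 5.49% ± 1.05 of Clec3b fibroblasts with any Pi16 and 7.06% ± 1.84 of endothelial cells. At full depth the shares were 84.8, 15.6 and 9.57%. Tcf21, a transcription factor of the lipid-bearing lung fibroblast lineage, was seen in 41.2% ± 4.85 of thinned members, 29.9% ± 5.02 of Clec3b fibroblasts and 0.639% ± 0.441 of endothelial cells. Mfap4, a microfibril-associated protein, was seen in 87.7% ± 5.51, 49.7% ± 4.77 and 3.75% ± 0.938. Npnt therefore separated the members from Clec3b fibroblasts most sharply of the 3, and Tcf21 was present in both kinds of fibroblast. In airway-rich members, described above, the thinned shares of Npnt, Tcf21 and Mfap4 were 26.9% ± 36.8, 20.7% ± 39.1 and 38.1% ± 34.0. These means give each library the same weight. Zip8AEC2 1 had 2 airway-rich members, of which 1 was under 2000 UMIs and left out, and control 4 had 7, of which 4 were. The means and SDs thus rest partly on very few cells. In the other members the thinned shares were 76.4, 43.3 and 91.0%. Airway-rich members of control 2 held 56.9 UPM of Npnt, against 1212 in its other members. The data bear out the label for the members without airway-rich cells, and not for that subset.

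Further genes were read as thinned shares of members, of Clec3b fibroblasts with any Pi16 and of endothelial cells, in that order. Limch1, an actomyosin regulator, was seen in 88.4, 25.5 and 16.6%, and G0s2, an inhibitor of lipid droplet lipase, in 68.2, 18.1 and 1.70%. Itga8, a chain of the integrin that binds nephronectin, was seen in 54.9, 4.65 and 0.652%, and Col13a1, a transmembrane collagen, in 37.4, 2.09 and 0.305%. Fgf10, a growth factor for lung epithelium, was seen in 19.2% ± 3.08, 6.86% ± 1.56 and 0.113% ± 0.276. At full depth 46.1% of members had an Fgf10 UMI, so a share without a UMI does not mark cells that lack the transcript. Acta2, the smooth muscle actin of myofibroblasts, was seen in 10.5% of thinned members and 5.63% of thinned Clec3b fibroblasts with any Pi16, and in 22.1 and 12.6% at full depth. The proliferation gene Mki67 was seen in 0.0821% of thinned members. Sftpc was seen in 90.3% of members and 92.3% of endothelial cells, so its presence here was read as background and not as expression.

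Markers of cells that the gate should exclude were summed for each library. The AEC2 list held 4041, 3179, 4573 and 4122 CPM in controls and 2177 and 2305 in Zip8AEC2, led by Sftpc, with Lamp3 at 0 by the gate. Without airway-rich cells it held 3481, 1081, 1974 and 3875 CPM in controls and 2164 and 1666 in Zip8AEC2, and the groups overlapped. The endothelial list, led by Ramp2, held 52.96 to 104 CPM, the immune list, led by Cd74, 41.5 to 56.7, and the mesothelial list 30.7 to 113, with Cdh5, Ptprc and Msln at 0 by the gate. Pericyte and smooth muscle markers held 66.8 to 99.3 CPM, with Higd1b, Trpc6 and Actg2 at 0. The club and ciliated cell list, led by Scgb1a1, held 40389, 91626, 112591 and 8479 CPM in controls and 11033 and 66490 in Zip8AEC2, with Foxj1 at 0 by the gate. The alveolar fibroblast list, Inmt included, held 19169 to 21497 CPM in the 6 libraries, less than the club and ciliated list in 4 of them. The adventitial list held 28313 to 32966 CPM in members, led by Gsn.

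Members made up 20.3, 20.1, 13.2 and 26.2% of gated fibroblasts in controls and 22.2 and 41.3% in Zip8AEC2. Their Wilson 95% intervals, which cover counting error only, ran over 18.6 to 22.1, 19.0 to 21.3, 11.8 to 14.7 and 24.3 to 28.2% in controls, and 19.1 to 25.6 and 38.6 to 44.0% in Zip8AEC2. Zip8AEC2 1 lay among the controls and Zip8AEC2 2 above them all. The difference of the means was 11.8 percentage points (exact permutation test, two-sided, p = 0.133, where 4 against 2 libraries cannot go below 0.0667), and it was 2.24 points without Zip8AEC2 2 and 21.4 without Zip8AEC2 1. Leaving out airway-rich cells gave 22.1, 23.1, 17.4 and 27.5% in controls and 24.3 and 42.1% in Zip8AEC2.

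As a share of all kept barcodes, members were 5.73, 9.18, 3.80 and 6.03% in controls and 2.37 and 10.0% in Zip8AEC2. The labelled knockouts were the lowest and the highest of the 6 libraries. The means differed by 0.021 points (exact permutation test, two-sided, p = 1). Neither share could be told apart between the groups at this number of libraries.

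**Figure D1:**
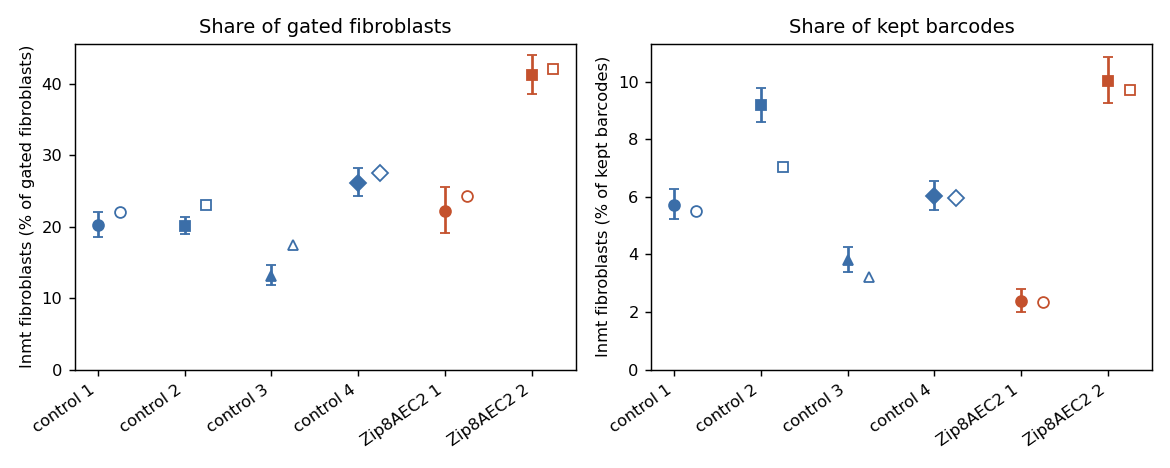
Members as a percentage of gated fibroblasts (left) and of all kept barcodes (right) in each library, with controls in blue and Zip8AEC2 in red. Filled points carry Wilson 95% intervals and open points leave out airway-rich cells. Zip8AEC2 2 stands above the controls at 41.3% of gated fibroblasts, and Zip8AEC2 1 lies among them at 22.2%.

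Members were next compared with Clec3b fibroblasts, gated alike but with at least 3 Clec3b UMIs, more Clec3b than Inmt, and no Pi16. There were 36, 254, 67 and 135 such cells in controls and 39 and 29 in Zip8AEC2. UMIs were summed per library and gate, and the 12 sums were fitted in edgeR's quasi-likelihood test with library as a block. Benjamini-Hochberg adjustment ran over all 8653 genes tested, and the 12 genes of the gates were not tested. CPM values in this comparison are scaled over the 12 sums jointly. Of the genes tested, 1542 (17.8%) passed an adjusted p of 0.05, 771 higher and 771 lower in members (8.91% each way). With total UMIs in place of the trimmed mean scaling the split was 936 higher and 329 lower, and the median over all genes moved to 0.25 on the log2 scale.

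Markers of other cell types in the Clec3b sums bear on the comparison. Scgb1a1 took 376521, 231205 and 349011 UPM of Clec3b cells in controls 1 to 3, against 7108 to 10606 in the other libraries. Mesothelial markers summed to 1408, 911, 821 and 2616 CPM, here scaled over the Clec3b sums alone, in controls and 1188 and 350 in Zip8AEC2, although Msln was at 0 by the gate. On that scale the AEC2 list summed to 15494, 11156, 20623 and 3641 CPM in controls and 1872 and 1832 in Zip8AEC2. The immune list, led by Cd74, summed to 335, 148, 333 and 1491 CPM in controls and 341 and 44.3 in Zip8AEC2. A second version was therefore added after the data were seen, with any Pi16 allowed in Clec3b fibroblasts and airway-rich cells left out of both gates. It tested 11168 genes and called 5370 (48.1%), 2599 higher (23.3%) and 2771 lower (24.8%). There the mesothelial markers of Clec3b fibroblasts summed to 82.9 to 626 CPM. Values from it are given below as "with any Pi16".

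Members carried the alveolar program. Of 21 tested genes of the alveolar fibroblast list, 18 were higher in members and 0 lower, with a median log2 difference of 2.54, where 8.91% of all genes tested were called each way with a median of -0.008. With any Pi16, 18 were higher, 2 lower, and the median was 2.89, where 23.3% of all genes were higher and 24.8% lower. Npnt stood at 1109, 1016, 792 and 1032 CPM in control members and 981 and 1065 in Zip8AEC2 members, against 140, 66.5, 129 and 31.8 and then 125 and 209 CPM in Clec3b fibroblasts. The lowest member sum exceeded the highest Clec3b sum, for a log2 difference of 3.31 (SE 0.31, edgeR adjusted p = 4.6e-05) and 5.02 with any Pi16. Npnt lies at chr3:132881745-132950291 on the minus strand.

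Tcf21 stood at 231, 259, 305 and 394 CPM in control members and 271 and 313 in Zip8AEC2 members, against 42.0, 106, 125 and 29.0 and then 120 and 107 CPM. These did not overlap either, and the log2 difference was 1.85 (SE 0.31, edgeR adjusted p = 0.00165), falling to 0.76 with any Pi16. Mfap4 averaged 2828 ± 308 CPM in members (SD, n = 6) and 790 ± 599 in Clec3b fibroblasts, a log2 difference of 2.14 (SE 0.30, edgeR adjusted p = 0.000596). Tcf21 lies at chr10:22817281-22820174 on the minus strand and Mfap4 at chr11:61485431-61488900 on the plus strand.

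Of the genes that met the rule for naming, Scube2 encodes a secreted protein that helps release Hedgehog ligand. It stood at 131, 90.8, 87.8 and 112 CPM in control members and 71.9 and 121 in Zip8AEC2 members, and at 0 to 11.7 CPM in Clec3b fibroblasts, a log2 difference of 4.37 (SE 0.34, edgeR adjusted p = 1.67e-05). The Clec3b sums were near 0, and the fitted difference lay between 3.48 and 6.06 over the alternatives. Cdo1, which oxidises cysteine, averaged 248 ± 32.4 CPM in members and 20.7 ± 18.8 in Clec3b fibroblasts, and Adamtsl2, a fibrillin-binding matrix protein, 186 ± 15.5 and 20.6 ± 5.74. The sodium channel gene Scn3a differed by 3.32 on the log2 scale (5.30 with any Pi16) and the amino acid transporter gene Slc38a5 by 3.25 (4.06). Lrat, which esterifies retinol for storage, averaged 133 ± 51.0 CPM against 17.7 ± 14.1, and Gyg, the primer of glycogen synthesis, 388 ± 65.1 against 61.8 ± 67.9. Ppp1r14a, an inhibitor of myosin phosphatase, Prkg2, a cGMP-dependent kinase, Sept4, a septin, and Ncald, a calcium sensor, were 2.87 to 2.95 higher. The rule required the same sign in all 6 libraries.

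A few genes of the alveolar list behaved otherwise. Ces1d, a carboxylesterase, had a log2 difference of -0.59 (edgeR adjusted p = 0.415) and 1.90 with any Pi16, a change of sign. Figf (Vegfd), a growth factor of lymphatic vessels, was higher by 0.90 (edgeR adjusted p = 0.0475), and stood at -0.12 with any Pi16, not past the threshold. Its call was also lost without any 1 of the 4 controls and without Zip8AEC2 1, at 0.70 to 1.03. Gpc3, a membrane heparan sulfate proteoglycan, had 0.46 and Lpl, lipoprotein lipase, -0.38, neither past the threshold, and both passed as lower with any Pi16, at -0.41 and -1.17.

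**Figure D2:**
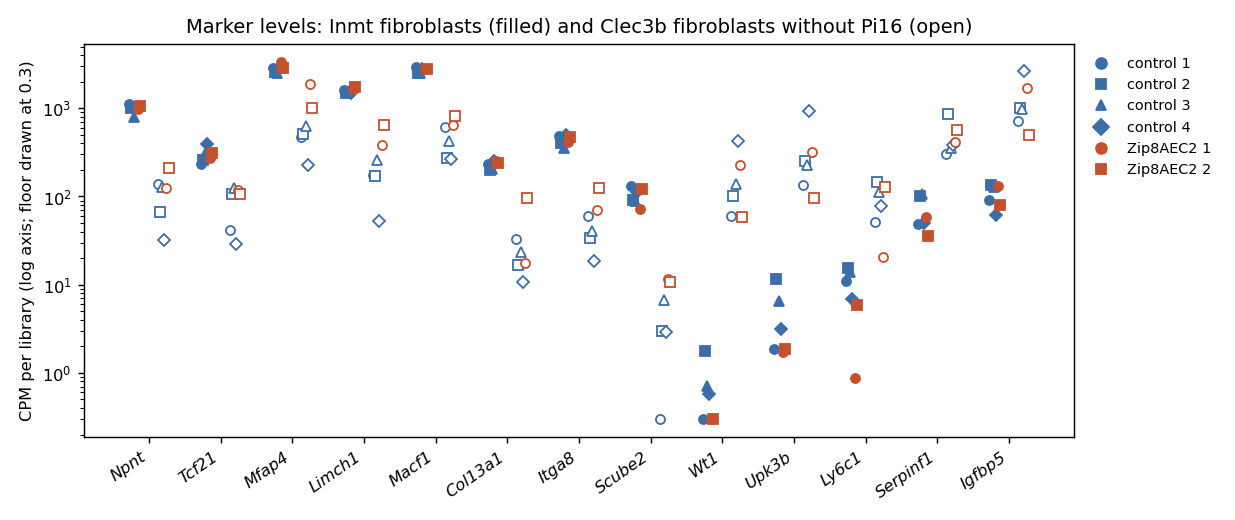
CPM on a log axis of alveolar, adventitial and mesothelial marker genes in each library, with filled points for Inmt members and open points for Clec3b fibroblasts without Pi16. Npnt spans 792 to 1109 CPM in members and 31.8 to 209 in Clec3b fibroblasts, and Serpinf1 spans 35.8 to 108 and 303 to 854.

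On the other side, genes lower in members were led by mesothelial genes, which entered the test through the Clec3b sums where they were high. Wt1, a transcription factor of mesothelium, averaged 0.587 ± 0.647 CPM in members and 169 ± 139 in Clec3b fibroblasts, Upk3b 4.46 ± 3.96 and 328 ± 309, and Lrrn4 0.957 ± 1.14 and 148 ± 113. These genes were near 0 in members. Myrf, Cldn15, Gpm6a, Podxl, Pkhd1l1 and Arhgdib completed the leading genes, at -5.84 to -4.54 on the log2 scale. The part of mesothelial RNA in the Clec3b sums in these differences was not tested.

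Adventitial genes were lower too. Of 14 tested genes of the adventitial list, 9 were lower and 1 higher, with a median of -1.43 (8.91% of all genes each way), and with any Pi16 all 17 tested were lower, with a median of -2.96 (24.8% of all genes). Ly6c1, a surface protein, stood at 10.9, 15.6, 14.0 and 6.91 CPM in control members and 0.866 and 5.92 in Zip8AEC2 members, against 51.3, 146, 112 and 78.2 and then 20.4 and 129 CPM. Each member sum lay below each Clec3b sum, for a log2 difference of -3.32 (SE 0.25, edgeR adjusted p = 1.51e-05). When any Pi16 was instead allowed in the members, the call was lost at -0.91 (edgeR adjusted p = 0.0870), and so was that of Cd248, a surface glycoprotein, at -0.65 (0.105). Serpinf1, the secreted protein PEDF, Cd248 and Il33, an alarmin cytokine, differed by -2.87, -2.82 and -2.86. Gsn, the actin-severing gelsolin, was the gene of the list that was higher, at 0.74 (edgeR adjusted p = 0.0244), and it was lower, at -0.55 with any Pi16. Its call was also lost when any 1 of the 4 controls was left out, at 0.55 to 0.78, after thinning (0.43) and without airway-rich cells (0.45). Outside that list, Pdlim4, Wfdc1 and Aldh1a2, which stands on the mesothelial and retinoid lists, were lower, at -4.20, -4.06 and -3.99, and kept that direction with any Pi16.

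Matrix genes were counted beside the shares of all genes tested, 8.91% each way, and 23.3% higher and 24.8% lower with any Pi16. Of 16 tested interstitial collagen genes and their partners 2 were higher and 3 lower. The proteoglycan genes Ogn, at 2018 ± 203 CPM in members and 745 ± 311 in Clec3b fibroblasts, and Bgn, at 2758 ± 188 and 1369 ± 683, were higher by 1.52 and 1.15 on the log2 scale, and Ogn by 0.83 with any Pi16. Lum, a proteoglycan that regulates collagen fibrils, was lower, at 24.9 ± 16.8 and 196 ± 109 CPM, as was Col14a1 at 116 ± 19.8 and 342 ± 198, whose call was lost at -0.32 (edgeR adjusted p = 0.456) with any Pi16 in the members. With any Pi16 in the Clec3b gate the collagen list stood at 5 higher and 10 lower of 17. Of 18 tested elastic fibre genes 8 were higher and 3 lower. Loxl1, which cross-links elastin, averaged 622 ± 76.8 against 306 ± 164 CPM, and Fbln5, which nucleates elastic fibres, 198 ± 29.5 against 104 ± 47.0, while Fbln2 was lower, at -2.74. The log2 differences of Loxl1 and Fbln5, 1.14 and 0.95, shrank to 0.26 and 0.30 with any Pi16. There the elastic list stood at 6 higher and 10 lower. Of 21 basement membrane genes 7 were higher, Npnt among them, and 5 lower, Col15a1 among them at -1.69, and with any Pi16 9 were higher and 9 lower of 24.

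Lipid and retinoid genes had calls in both directions, beside 8.91% of all genes each way, and 23.3% higher and 24.8% lower with any Pi16. Of 17 lipid handling genes 4 were higher and 2 lower, and with any Pi16 9 were higher and 4 lower of 19. Plin2, a coat protein of lipid droplets, averaged 96.5 ± 8.39 CPM in members and 52.9 ± 17.4 in Clec3b fibroblasts (log2 difference 0.87, edgeR adjusted p = 0.00526), and the call was lost at 0.53 (edgeR adjusted p = 0.0508) with any Pi16 in the members. Fabp5, a fatty acid carrier, was lower at 30.8 ± 11.4 against 227 ± 174 CPM, a log2 difference of -2.72 that shrank to -1.09 with any Pi16. Apoe, the most abundant gene of the list in members at 5076 ± 721 CPM, had a difference of 0.36 that did not pass (edgeR adjusted p = 0.218). Of 11 retinoid genes 3 were higher, Lrat and Adh1 among them, and 3 lower, Aldh1a2, which makes retinoic acid, and Rarres2 among them. With any Pi16 6 were higher and 6 lower of 13, and the difference of Adh1 shrank from 1.48 to 0.40 on the log2 scale. The call of Rarres2, at -0.59, was lost with total UMIs (-0.31) and without doublets (-0.44).

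Of 25 tested niche ligand genes 10 were higher in members and 7 lower (8.91% of all genes each way), and with any Pi16 13 and 12 of 32 (23.3 and 24.8% of all genes). Bmp3 stood at 331, 292, 278 and 272 CPM in control members and 288 and 316 in Zip8AEC2 members, against 98.0, 41.7, 47.3 and 10.6 and then 78.7 and 150 CPM in Clec3b fibroblasts. The sums did not overlap, and the log2 difference was 2.40 (SE 0.35, edgeR adjusted p = 0.000722). Angpt1, the Tie2 ligand that steadies vessels, averaged 189 ± 10.3 against 54.1 ± 18.5 CPM (1.90 on the log2 scale, 1.08 with any Pi16), and Wnt2 45.4 ± 13.8 against 13.1 ± 10.4. The Wnt2 call was lost at 0.83 (edgeR adjusted p = 0.103) with any Pi16 in the members. Fgf1 was lower, at 6.63 to 9.35 CPM in members against 62.5 to 193, as was Rspo3, an amplifier of WNT signals, at 0.864 to 2.51 against 10.7 to 28.0. Their log2 differences, -3.70 and -3.60, shrank to -2.001 and -2.28 with any Pi16.

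Of 13 secreted inhibitors and binding proteins, 4 were lower and 0 higher (8.91% of all genes each way), and with any Pi16 11 were lower and 4 higher of 18 (24.8 and 23.3% of all genes). Igfbp5, which binds insulin-like growth factors, averaged 104 ± 31.2 CPM in members and 1259 ± 789 in Clec3b fibroblasts, Igfbp4 605 ± 110 and 1704 ± 516, and Igfbp6 1087 ± 96.4 and 1787 ± 517. All 3 were lower in 6 of 6 libraries, but with any Pi16 in the members the calls of Igfbp4 (-0.56, edgeR adjusted p = 0.0558) and Igfbp6 (-0.08, 0.825) were lost. That of Igfbp6 was also lost with total UMIs (-0.40) and without doublets (-0.57). Of 26 receptors 6 were higher and 5 lower, and with any Pi16 9 were higher and 15 lower of 30, where the higher share was near that of all genes. The FGF receptor Fgfr4 stood at 21.5 to 52.0 CPM in members and 0 to 5.36 in Clec3b fibroblasts, with a log2 difference of 3.83, and Fgfr3 averaged 223 ± 26.7 against 72.2 ± 35.2 CPM. The WNT co-receptor Lrp5 and the oncostatin M receptor Osmr were higher by 1.496 and 0.95.

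Transcription factors and cell contacts came next. Of 36 transcription factors of lung mesenchyme 14 were higher and 4 lower, with a median of 0.53 (8.91% of all genes each way), and with any Pi16 20 were higher and 14 lower of 40, with a median of 0.24 (23.3 and 24.8% of all genes). Tbx2 averaged 239 ± 47.4 against 49.1 ± 31.8 CPM and Tbx4, which patterns lung mesenchyme, 108 ± 16.1 against 23.02 ± 14.9, log2 differences of 2.37 and 2.30. Nfib, the most abundant of the list at 1121 ± 64.5 CPM, was higher by 0.73, a call lost when any 1 of the 4 controls was left out (0.60 to 0.75). Tcf4 was higher by 0.86, whereas Ebf1 was lower, at -2.52, and not past the threshold at -0.80 with any Pi16 in the members. Of 8 genes of integrins and their contacts 4 were higher and 0 lower (5 and 2 of 10 with any Pi16), among them Itga8, at 437 ± 55.6 against 57.8 ± 37.1 CPM, Itgb5 and Itgb8. Itgb5 shrank from 1.15 to 0.37 on the log2 scale with any Pi16.

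Defence and metabolic genes completed the comparison. Of 20 inflammatory fibroblast genes 9 were lower and 2 higher (8.91% of all genes each way), and with any Pi16 11 were lower and 9 higher of 21 (24.8 and 23.3% of all genes). Complement C3 averaged 1194 ± 88.6 CPM in members and 3080 ± 1167 in Clec3b fibroblasts, and the eosinophil chemokine Ccl11 41.2 ± 11.99 and 184 ± 58.9, where the Ccl11 call was lost at -0.71 with any Pi16 in the members. Cxcl14, a chemokine, was the reverse, at 977 ± 144 and 195 ± 121 CPM, a log2 difference of 2.56 (SE 0.35, edgeR adjusted p = 0.000435). Of 22 genes of methyl group and xenobiotic metabolism 5 were higher and 3 lower, and with any Pi16 13 and 6 of 25, where the lower counts were near the shares of all genes. Mat2a, which makes the methyl donor that Inmt uses, averaged 680 ± 184 against 206 ± 33.9 CPM, Gpx3, a secreted glutathione peroxidase, 1942 ± 194 against 557 ± 180, and the extracellular superoxide dismutase Sod3 1094 ± 44.3 against 429 ± 179. Ephx1, an epoxide hydrolase, was lower, at -1.19. Slc39a8 was lower in members at -1.47 (edgeR adjusted p = 0.0148) but stood at -0.25 with any Pi16 and at -1.07 without control 3, not past the threshold.

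The genotype comparison was made on the 6 member sums, 4 control and 2 Zip8AEC2, with CPM scaled over these sums alone. Of 11119 genes tested by edgeR's quasi-likelihood test, 1 passed an adjusted p of 0.05 (0.00899%), Mt2, which was lower in Zip8AEC2, and 0 were higher. Unadjusted, 680 genes (6.12%) had p under 0.05, 318 higher (2.86%) and 362 lower (3.26%), and DESeq2 called 12 genes. Libraries of the groups did not overlap for 1890 genes (17%), 1009 higher (9.07%) and 881 lower (7.92%). Without airway-rich cells 1 gene of 10959 passed (0.00912%), again Mt2.

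Mt2 and its neighbour Mt1 encode metallothioneins, small cysteine-rich proteins that bind zinc and copper, and both are induced by zinc through the factor MTF1 at metal response elements. Mt2 lies at chr8:94172664-94173568 and Mt1 at chr8:94179082-94180327, both on the plus strand of mm10. The 250 bases before each RefSeq start (build GRCm38.p6) are shown because these are the gene called and its closest relative. The RefSeq starts differ by some bases from the gene starts given above. Capitals mark the core of the element, searched as TGCACNC or TGCGCNC on both strands.

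Mt2, chr8:94172368-94172617, plus strand: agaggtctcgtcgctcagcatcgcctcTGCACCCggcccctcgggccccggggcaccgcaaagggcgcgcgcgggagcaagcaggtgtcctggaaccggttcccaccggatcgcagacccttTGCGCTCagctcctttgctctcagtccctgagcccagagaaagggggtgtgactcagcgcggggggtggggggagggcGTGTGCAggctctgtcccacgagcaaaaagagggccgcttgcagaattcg

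Mt1, chr8:94178839-94179088, plus strand: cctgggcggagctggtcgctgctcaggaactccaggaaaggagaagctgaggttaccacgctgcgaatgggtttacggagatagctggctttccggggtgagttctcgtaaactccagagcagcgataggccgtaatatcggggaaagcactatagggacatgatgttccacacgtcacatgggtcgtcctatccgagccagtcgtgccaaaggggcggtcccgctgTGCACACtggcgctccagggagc

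The Mt2 window holds 3 matches, 2 of TGCACNC, of which 1 lies on the minus strand, and 1 of TGCGCNC. The Mt1 window holds 1, of TGCACNC. Of 32851 promoter windows of this length in the RefSeq set, 21.4% hold at least 1 match and 1.26% at least 3. A match describes letters and not a bound site. Bases outside the 2 windows were not searched, so the counts do not give the number of elements of either gene and do not rank the genes.

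Mt2 stood at 172, 125, 177 and 112 CPM in control members and at 26.0 and 31.5 CPM in Zip8AEC2 members, from 2343 control and 203 Zip8AEC2 UMIs. The groups did not overlap, and the highest labelled knockout lay well below the lowest control. Mt2 fell by 2.29 on the log2 scale (SE 0.23, edgeR adjusted p = 0.0230), and by 2.30 without airway-rich cells. The call was lost without control 3 (-2.19, adjusted p = 0.0593), without Zip8AEC2 1 (-2.21, 0.520), without Zip8AEC2 2 (-2.49, 0.167) and without cells scored as doublets (-2.12, 0.0571), each by edgeR. With 1 Zip8AEC2 library left the spread comes from the controls alone, and the lone library is taken to vary like them. Over all alternatives the difference lay between -2.49 and -2.12 and the adjusted p between 2.98e-20, from DESeq2, and 0.520.

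Mt1 stood at 314, 695, 810 and 653 CPM in control members and at 150 and 133 in Zip8AEC2 members. Again the groups did not overlap, but control 1 was lower than the other controls. The log2 difference was -2.13 (SE 0.33, edgeR adjusted p = 0.187), between -2.35 and -1.77 over the alternatives, and it passed the threshold by DESeq2, without the low-count filter and without control 1. Of 19 tested zinc genes in all, which include transporters of the Slc39 and Slc30 families, 1 passed, Mt2, with 3 above 0 and 16 below 0 and a median of -0.11, where all genes had -0.0002. Among all 11119 genes tested 5565 lay below 0.

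The same genes were read in other cells of the same libraries, here in UPM and with no test. Mt2 in Pi16-positive fibroblasts was 83.1, 114, 105 and 139 in controls and 42.1 and 38.2 in Zip8AEC2. In Clec3b fibroblasts with any Pi16 it was 91.4, 139, 139 and 156 in controls and 57.5 and 79.6 in Zip8AEC2. The controls lay above the labelled knockouts in both of these fibroblast populations. In Clec3b fibroblasts without Pi16, a subset of the latter with 29 to 254 cells a library, Mt2 was 132, 150, 93.5 and 126 in controls and 51.7 and 293 in Zip8AEC2, where Zip8AEC2 2 was the highest library. In endothelial cells Mt2 was 5.2, 15.2, 17.0 and 13.9 in controls and 10.2 and 14.8 in Zip8AEC2, and in AEC2 reference cells it was 47.3, 61.9, 36.1 and 35.9 and then 69.0 and 42.1. In these 2 cell types the libraries of the groups overlapped.

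Mt1 was alike in this respect. It was 309, 560, 570 and 768 UPM in Pi16-positive fibroblasts of controls and 128 and 247 in Zip8AEC2, and 393, 704, 781 and 781 and then 175 and 427 in Clec3b fibroblasts with any Pi16, where Zip8AEC2 2 exceeded control 1. In Clec3b fibroblasts without Pi16 it was 393, 629, 613 and 553 and then 145 and 514, which overlapped. In endothelial cells it was 34.5, 76.5, 72.1 and 65.4 in controls and 45.0 and 42.1 in Zip8AEC2, which overlapped. AEC2 reference cells held 200, 284, 194 and 180 in controls and 242 and 221 in Zip8AEC2.

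**Figure D3:**
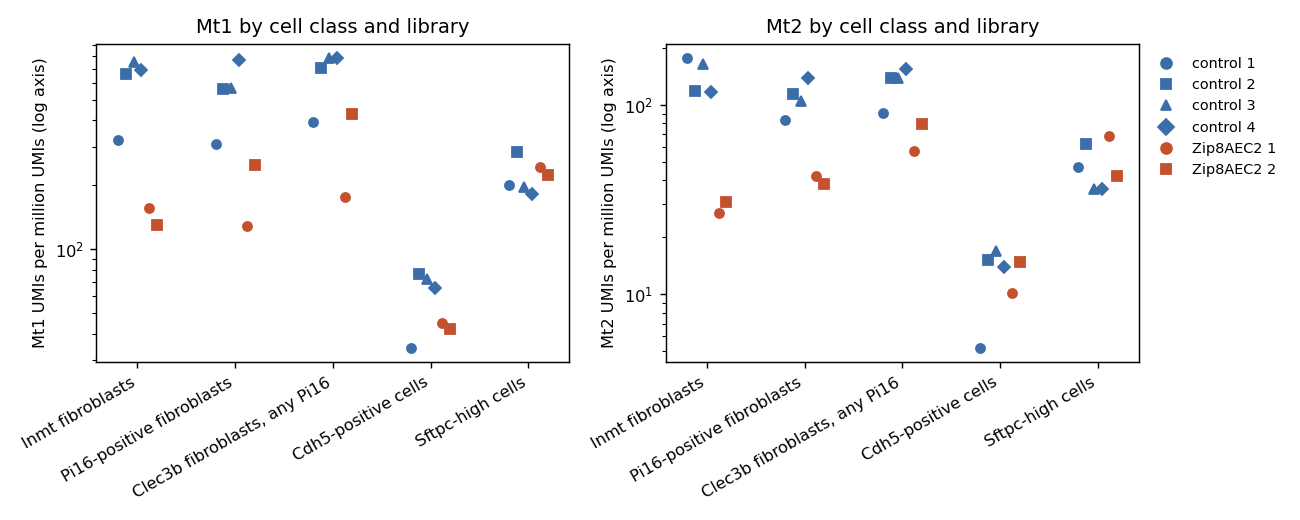
UPM, on a log axis, of Mt1 and Mt2 in 5 cell populations, with controls in blue and Zip8AEC2 in red and each library as its own symbol. Mt2 of control AEC2 cells spans 35.9 to 61.9 and of Zip8AEC2 42.1 to 69.0, while in Pi16-positive fibroblasts the controls span 83.1 to 139 and Zip8AEC2 38.2 to 42.1.

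Whether the genotype difference of members differed from that of Clec3b fibroblasts without Pi16 was tested as an interaction. Of 10176 genes tested by edgeR 0 passed (0%), with 751 at an unadjusted p under 0.05 (7.38%), 336 above 0 (3.3%) and 415 below 0 (4.08%), and DESeq2 called 2, Myl9 and Slc38a5, chosen for mention after their values were seen. Mt2 had an interaction of -2.15 (SE 0.52, edgeR adjusted p = 0.431) and Mt1 -0.72 (SE 0.52, edgeR adjusted p = 0.8005). The 95% intervals, not adjusted for the number of genes, ran from -3.30 to -0.999 for Mt2 and from -1.86 to 0.43 for Mt1. With any Pi16 in the Clec3b gate and airway-rich cells left out, Mt2 had -1.43 (SE 0.36, edgeR unadjusted p = 0.00210, adjusted 0.684) and Mt1 -0.94 (SE 0.31, edgeR unadjusted p = 0.0104, adjusted 0.868). Both genes had the same sign in both versions, and none of these values passed the adjusted threshold. A difference between the fibroblast kinds was therefore not established for either gene. Of the 6 Clec3b sums in that test, Zip8AEC2 2, from 29 cells, had the highest Mt2.

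The other genes named by the rule did not pass the adjusted threshold by edgeR in the main comparison and are given as values. DESeq2 nonetheless called Sftpc, Ch25h, Gm26917, Sox4 and Ptch1 among them. Sftpc, the surfactant gene of AEC2s, stood at 2581, 1763, 2638 and 2883 CPM in control members and 1181 and 943 in Zip8AEC2 members (-1.22, edgeR adjusted p = 0.187). Without airway-rich cells it was 2456, 728, 1318 and 2708 and then 1184 and 858 CPM, which overlapped (-0.82, 0.787). Sftpc passed by edgeR after thinning, without the low-count filter, with any Pi16 in the members and without control 2. In AEC2 reference cells Sftpc took 171449, 173867, 191450 and 184342 UPM in controls and 104203 and 105200 in Zip8AEC2, and in endothelial cells 2903, 779, 1870 and 3515 and then 1483 and 1197. Control 2 had the lowest endothelial level, at 779 UPM, in cells chosen without airway-rich barcodes. With airway-rich cells included its members, at 1763 CPM, lay above both Zip8AEC2 libraries, and without them, at 728 CPM, below both. The part of background Sftpc in the difference was not tested.

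Ch25h, which makes 25-hydroxycholesterol, stood at 37.9, 59.8, 40.0 and 48.3 CPM in controls and 18.6 and 15.5 in Zip8AEC2 (-1.53, SE 0.23, edgeR adjusted p = 0.187). Gm26917, a non-coding transcript, stood at 54.3 to 68.3 CPM in controls and 35.3 and 28.3 in Zip8AEC2 (-0.99, edgeR adjusted p = 0.187). Neither overlapped between the groups. Sox4, a transcription factor of progenitor cells, stood at 105, 108, 80.8 and 97.6 CPM in controls and 173 and 175 in Zip8AEC2 (0.82, SE 0.12, edgeR adjusted p = 0.187), and at an adjusted p of 0.106 without airway-rich cells.

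Ptch1, the Hedgehog receptor and a target of its own pathway, stood at 119, 104, 94.3 and 124 CPM in controls and 202 and 173 in Zip8AEC2 (0.75, SE 0.13, edgeR adjusted p = 0.246). Mdfi, an inhibitor of myogenic factors, stood at 14.3 to 16.5 CPM in controls and 26.9 and 26.5 in Zip8AEC2 (0.80, edgeR adjusted p = 0.410). Wnt4, a WNT ligand, stood at 37.7 to 54.5 and then 79.0 and 74.2 CPM (0.73, edgeR adjusted p = 0.620). Phex, an endopeptidase, stood at 14.2 to 21.9 and then 37.2 and 35.5 CPM (0.92, edgeR adjusted p = 0.620). All 4 lay higher in both labelled knockouts than in each control, as did 9.07% of genes tested. Without the low-count filter Wnt4 and Phex passed by edgeR, at an adjusted p of 0.00775 and 0.0114.

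**Figure D4:**
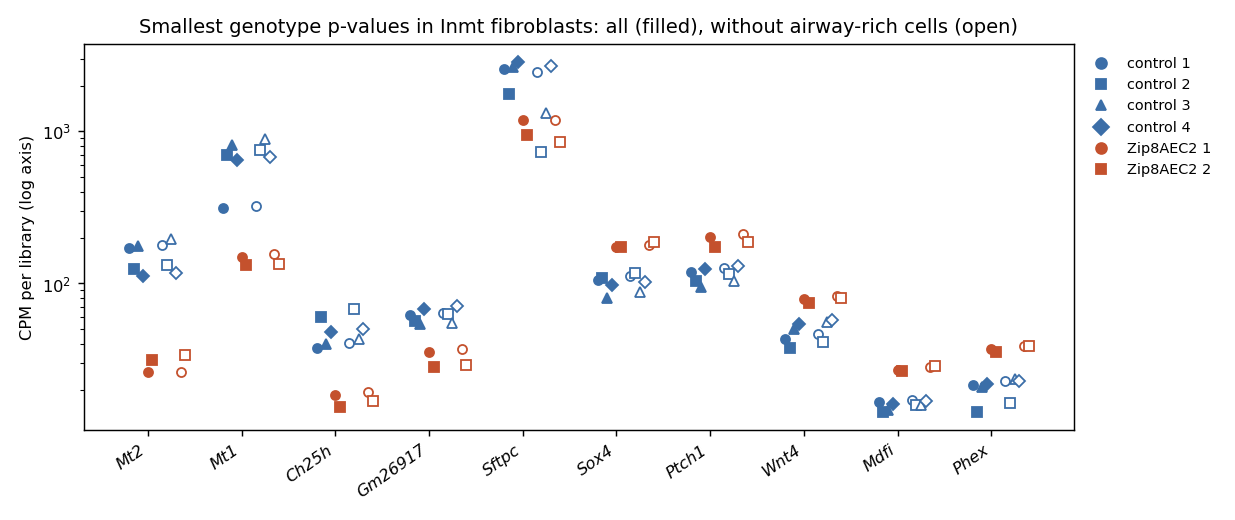
CPM on a log axis of the 10 genes named by the genotype rule in the members of each library, filled for all members and open without airway-rich cells. Mt2 spans 112 to 177 CPM in controls (blue) and 26.0 to 31.5 in Zip8AEC2 (red), and Sftpc is the gene whose groups overlap once airway-rich cells are left out.

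Gene lists for this tissue were read by their counts, without the genes of the gate, and by edgeR Mt2 was the 1 gene on them that passed. DESeq2 also called Mt1, Sftpc, Hba-a1, Hbb-bs and Ptch1 of these lists. At an unadjusted p under 0.05 2.86% of all genes tested lay higher and 3.26% lower, which is the share to read each list count against. Of 21 alveolar fibroblast genes 2 had an unadjusted p under 0.05 and lay higher and 1 lower, with a median of 0.05. Adh1 stood at 397 to 452 CPM in controls and 659 and 480 in Zip8AEC2, Gyg at 323 to 431 and then 466 and 499, and G0s2 at 938 to 1390 and then 780 and 818. Of the label's markers, Npnt overlapped, at 850 to 1183 CPM in controls and 1052 and 1135 in Zip8AEC2. Tcf21 did too, at 246 to 420 and then 291 and 333. Mfap4 stood at 2669 to 3069 CPM in controls and 3601 and 3013 in Zip8AEC2, where Zip8AEC2 1 lay above each control.

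Of 30 niche ligand genes 15 lay above and 15 below 0, and 5 higher and 0 lower had an unadjusted p under 0.05, where all genes gave 2.86 and 3.26%. Bmp4 stood at 129, 149, 106 and 165 CPM in controls and 201 and 189 in Zip8AEC2 (0.50), and Igf1 at 100 to 134 and then 145 and 151 (0.33). Kitl, the ligand of the Kit receptor, stood at 39.9 to 49.3 and then 60.4 and 54.9 CPM. Their edgeR adjusted p was 0.770. Of 31 receptors 3 lay higher at that unadjusted level, Fgfr3 at 211 to 229 CPM in controls and 279 and 269 in Zip8AEC2 among them. Of 37 transcription factors 5 lay higher and 2 lower, beside the same 2.86 and 3.26%, with Tbx2 at 198 to 266 and then 327 and 297 CPM, Meox2 at 140 to 164 and then 194 and 175, and Klf2, a flow-responsive factor, at 391 to 552 and then 344 and 334.

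Of 16 interstitial collagen genes 13 lay above 0, with a median of 0.07, and of 18 elastic fibre genes 15 did, with a median of 0.18. Among all 11119 genes tested 5554 lay above 0. The collagen list, genes of the gate included, summed to 16180, 18040, 17492 and 15492.5 CPM in controls and 18237 and 15837 in Zip8AEC2, which overlapped. The elastic list summed to 9446, 8773, 8768 and 9053 CPM in controls and 11209 and 9313 in Zip8AEC2, so Zip8AEC2 2 lay among the controls. Among its genes Efemp1 stood at 259 to 393 CPM in controls and 520 and 413 in Zip8AEC2. Col3a1 stood at 1359 to 1729 and then 2150 and 1860 CPM. Of 15 fibrosis activation genes 2 lay higher and 2 lower at an unadjusted p under 0.05 (2.86 and 3.26% of all genes), with a median of -0.04. Acta2 stood at 131, 148, 174 and 70.5 CPM in controls and 50.2 and 79.1 in Zip8AEC2, which overlapped. Acta2 passed by edgeR without the low-count filter, at an adjusted p of 0.0452. It belongs to a list of myofibroblast and peribronchial genes, of which 2 of 11 lay higher and 4 lower at that p, with a median of -0.33. The sums of that list did not overlap, at 489, 522, 584 and 521 CPM in controls and 437 and 401 in Zip8AEC2.

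Antigen presentation and interferon genes had fitted differences above 0, 13 of 13 MHC class I genes with a median of 0.29 and 20 of 20 interferon response genes with a median of 0.35, but 0 of either passed the adjusted threshold, and 1 and 2 had an unadjusted p under 0.05. Among all 11119 genes tested 5554 lay above 0. Gbp2, an interferon-induced GTPase, stood at 43.6, 50.2, 45.8 and 40.6 CPM in controls and 89.2 and 52.4 in Zip8AEC2. Psmb9, an immunoproteasome subunit, stood at 22.7 to 25.8 CPM in controls and 54.8 and 27.4 in Zip8AEC2. For both genes the higher level lay in Zip8AEC2 1, the library with 140 members. The MHC class I list summed to 2608, 2593, 2759 and 2785 CPM in controls and 3958 and 2526 in Zip8AEC2, so Zip8AEC2 2 was the lowest library and Zip8AEC2 1 the highest. The interferon list summed to 2374, 2397, 2796 and 2527 CPM in controls and 3346 and 2642 in Zip8AEC2, where Zip8AEC2 2 lay among the controls. Of 20 p53 targets 3 lay higher and 2 lower at an unadjusted p under 0.05 (2.86 and 3.26% of all genes), with Plk2 at 55.0 to 77.4 and then 79.9 and 106 CPM and Aen at 19.1 to 21.9 and then 12.1 and 14.1.

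Lists of other cells and of handling were read beside these. Endothelial genes summed to 72.6 to 104 CPM in controls and 63.2 and 52.96 in Zip8AEC2, and the groups did not overlap. At an unadjusted p under 0.05, 4 of 8 tested endothelial genes lay lower, 2 of 5 mesothelial and 5 of 5 erythroid genes, where 3.26% of all genes did. Genes scarce in Zip8AEC2 can pass the low-count filter through the controls alone, so the counts are a description. Mesothelial genes summed to 56.4 to 113 and then 30.7 and 57.6 CPM, which overlapped. Without airway-rich cells the mesothelial sums were 39.2, 65.4, 41.2 and 78.9 CPM in controls and 29.2 and 33.9 in Zip8AEC2, with no overlap. The median difference of the club and ciliated list turned from -0.73 to 0.31 without those cells. Haemoglobin and other erythroid genes summed to 21.4, 1353, 687 and 7421 CPM in controls and 9.29 and 15.5 in Zip8AEC2, led by Hbb-bs. Of 26 genes of dissociation stress 0 lay higher and 2 lower at an unadjusted p under 0.05 (2.86 and 3.26% of all genes), with a median of -0.07. The part of these in the metallothionein difference was not tested.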

How the data were processed

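Per the file headers and the labels, the authors made UMI counts per gene and barcode with Cell Ranger 3.1.0 on mm10 and used Seurat, with no cell annotation used here. The deposited counts held 27998 genes and were used as they stood. All 6 libraries were analysed, grouped by their labels.

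Cell gates, gene lists and members were chosen with earlier results of these data known. UMIs of the gated cells were summed per gene and library. Sums were filtered by filterByExpr, scaled by trimmed mean of M-values and tested in edgeR 4.0.16 (glmQLFit, glmQLFTest, R 4.3.3), with Benjamini-Hochberg adjustment and a threshold of 0.05. DESeq2 1.42.0 was an alternative. The tests were checked on simulated counts. Shares were compared by exact permutation tests (scipy 1.17.1). Doublets were scored with scrublet in scanpy 1.11.5 and left out only in an alternative. Genes named for the genotype comparison were the 5 in each direction with the smallest p, whether or not they passed, apart from those of the marker and pathway lists, of which the most abundant and up to 4 with the smallest p could be named. For the comparison of gates they were the 15 in each direction with the largest difference among those that passed, had at least 50 CPM in the higher gate and had the same sign in all 6 libraries. Promoters were taken from RefSeq (GRCm38.p6) and positions from GENCODE M21. Member sums held 1036713 to 7673090 UMIs, which sets the precision of each level. No column of the deposited tables was left out.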

Additional observations from a re-analysis of the deposited data

Results flagged for a closer look

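Among 67 sets of 4 control values tested for a value far from the rest by Dixon's test at 95%, 2 stood out, where chance gives about 1 in 20. Phex was at 14.2 CPM in control 2 and at 20.8 to 21.9 CPM in the other controls (ratio 0.861). G0s2 was at 1390.5 CPM in control 3 and at 938 to 994 CPM in the other controls (ratio 0.876).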

How the results depend on the processing

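The genotype comparison rested on 2 labelled knockout libraries, of which 1 held 140 members and 1036713 UMIs. Of 92 genes named between the gates, 71 kept their direction and side of the threshold in all 20 alternatives, 17 lost a call in at least 1, and 4 reversed. Ces1d reversed to 1.60 with any Pi16 in the Clec3b gate, to 1.90 when airway-rich cells were also left out, and to 0.22 when only those were. Under the first 2 of these Figf went to -0.15 and -0.12, Gpc3 to -0.44 and -0.41, and Gsn to -0.58 and -0.55. Of 36 genes named in the genotype comparison, 24 kept both in all 19 alternatives and 0 reversed. The cause of these changes was not tested.

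Genes called between the gates numbered 1542, and 5230 with any Pi16 in the Clec3b gate, 5370 with airway-rich cells also left out, 2404 without the low-count filter, 694 after thinning, and 945 (without control 2) to 1596 (without Zip8AEC2 2) with 1 library left out. Genotype calls numbered 1, and 12 by DESeq2, 33 without the filter, 2 with any Pi16 in the members (Mt2 and Sftpc), 2 after thinning (Mt2 and Sftpc), 0 without doublets and 0 to 3 with 1 library left out (0 without control 3 or either Zip8AEC2 library, 3 without control 1 or control 2). Interaction calls numbered 0, and 2 by DESeq2, 228 without the filter, 2 after thinning (Scgb1a1 and Scgb3a1), and 0 to 30 (without control 4) with 1 library left out. The difference in share of kept barcodes, 0.021 points, reversed to -0.41 with at least 2 Inmt UMIs, -0.60 without shared barcodes, -2.41 with any Pi16, -0.18 after thinning, and -3.81 (without Zip8AEC2 2) to 3.85 (without Zip8AEC2 1) with 1 library left out.

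With the replicate number as a block 4 genes were called, Mt2 and 3 haemoglobin genes. No label says that a number marks a shared litter, batch or day. Same-numbered libraries correlated at -0.03 and 0.16, but the deviations of the 2 Zip8AEC2 libraries from their mean mirror each other, so this check cannot tell whether the numbers pair the libraries. Alternatives on any Pi16 and on airway-rich cells were chosen after the data were seen.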

Other observations

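Rpl29, a ribosomal protein gene, was at 47.8, 37.6, 226 and 232 CPM in control members and at 456 and 43.4 CPM in Zip8AEC2 members, on the scale joint with Clec3b fibroblasts. On the same scale Gm10709 was at 300.4, 357, 172 and 164 CPM in controls and at 6.06 and 389 CPM in Zip8AEC2. The 2 genes were chosen after their values were seen. Gm10709 was highest in the 3 libraries where Rpl29 was lowest, and neither followed the labels. How reads were assigned between them was not tested, and both levels are given as uncertain.

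Saa3, an acute-phase gene of inflamed fibroblasts, was at 23.4, 4.50, 2.31 and 6.46 CPM in control members and at 22.3 and 66.1 CPM in Zip8AEC2 members, which overlapped. Igfbp3 was at 84.9, 58.8, 93.5 and 131 CPM in controls and at 105 and 238 CPM in Zip8AEC2, with overlap as well. Without the low-count filter Saa3 and Igfbp3 passed by edgeR, at an adjusted p of 0.000375 and 0.0282.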
